A study of Mus musculus with 6 samples.

Results

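The genes described here are 40 regulators of the G1/S transition of the cell cycle, out of 21887 protein-coding genes in a RefSeq gene table of the mouse genome build GRCm38. They were chosen by name and function rather than by their peaks, although earlier results of these data were known. They are 8 E2F genes, their 2 DP partners, 3 pocket proteins, 7 G1 and S phase cyclins, 3 cyclin-dependent kinases (CDKs), 6 CDK inhibitors, 3 genes that act on Cdk2 or p27, 2 Myc genes, 4 subunits of the MuvB core and 2 of its late partners. By textbook role 20 were taken as activators of S phase entry and 14 as inhibitors, and 6 were placed in neither class because their complexes work in both directions. The data are ChIP-Seq peak lists from mouse embryonic fibroblasts (MEFs) of C57BL/6 background lacking p53 (p53 KO MEF), in which doxycycline induced ONECUT3, a CUT homeobox transcription factor, from a retroviral Tet-One construct.

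Peak lists were available for the 3 libraries labelled ONECUT3-OE, in which cells had received 100 ng/mL doxycycline and chromatin was precipitated for the FLAG tag. The series also holds a control FLAG library from p53 KO MEFs without doxycycline, and an IgG library and an input library from doxycycline-treated ONECUT3-OE p53 KO MEFs (1 each), which were not analysed here. There is thus no list from uninduced cells, and a peak of the antibody itself cannot be told apart from one of Onecut3. All 6 libraries come from cells without p53. Since p53 drives the CDK inhibitor p21, these cells lack 1 arm of the checkpoint that the genes below belong to. Onecut3 was driven by the doxycycline-inducible promoter of a retroviral vector rather than by its own, and since separate cultures or lines are not documented for the 3 replicates, their spread may be technical. A peak list holds no expression, so the fibroblast label could not be checked against its markers.

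In G1 the D-type cyclins with Cdk4 or Cdk6, and later cyclin E with Cdk2, phosphorylate the pocket proteins Rb, p107 and p130 and release the E2F factors, which switch on the genes of DNA synthesis. INK4 proteins bind Cdk4 and Cdk6, and Cip/Kip proteins bind the cyclin-CDK complexes, and both hold the cycle in G1. In resting cells the MuvB core joins p107 or p130 with E2F4 or E2F5 and DP to form DREAM, which silences cell cycle genes, and later the same core joins B-Myb and FoxM1 to activate mitotic genes. Embryonic fibroblasts are a standard system for this pathway, in which the Cdkn2a locus is known to rise as primary cells are passaged and p53 loss lets them go on dividing.

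Only Ccnd2, Rb1 and E2f8 had a region with a peak in all 3 replicate lists inside the gene or within 3 kb of it, which is 3 of 40 members (7.5%), and 11.5% of all protein-coding genes had one. A shared region was defined as merged peaks, overlapping by at least 1 bp, with at least 1 peak from each list. Shared regions inside the gene itself were found at the same 3 members (7.5%), against 9.53% of all genes. A shared region within 3 kb of either end of the gene was found at Ccnd2 alone (2.5%), against 5.32% of all genes. Within 100 kb, 20 members had a shared region (50.0%), against 40.6% of all genes, and within 50 kb 18 had one (45.0%), against 27.8%. The share close to the genes was thus below that of genes in general and the share at a distance above it. With 40 genes the close counts lie within 2 genes of those shares, and since the members are a chosen list no test was made. Without replicate 2 the count inside or within 3 kb was 7 members, against 17.2% of all genes, with Rbl1, Cdk6, Cdc25a and Lin52 added.

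The 3 lists hold 31600, 12856 and 24822 peaks in replicates 1, 2 and 3. Merging gave 50844 regions, of which 5114 were shared. A fold below is the ratio of the ChIP pileup to the expected background at the summit with 1 added to both. The q is the corrected p-value that the peak caller wrote for that peak. Peaks that belong to shared regions had median folds of 3.94, 4.18 and 4.05, and the share of all peaks with a q of at most 0.05 was 33.6%, 71.0% and 47.7%. Replicate 2 has the shortest list with the largest share of low q, so a region absent from it alone may have fallen under its limit, which was not tested. Pileups could be recovered for replicates 1 and 3, where the median peak held 10 fragments.

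Promoters are shown first, since G1/S genes are controlled largely there and since no promoter of a member carried a shared region. RefSeq start sites with sequence (250 bases before to 50 after the start, GRCm38.p6) were at hand for 29 of the 40 members. A peak of any list touched such a window at 6 of the 29 (20.7%), against 6.17% of 17492 genes with a window, and a shared region at 0 of 29, against 1.87%. Per replicate the counts were 3 of 29 (10.3%) against 4.26% in replicate 1, 2 of 29 (6.9%) against 2.88% in replicate 2 and 3 of 29 (10.3%) against 3.81% in replicate 3. Members have a mean of 1.31 windows each and all genes 1.22. The members were E2f1, Skp2, Cdc25a, Tfdp2, Cdk6 and Lin37, and only Cdk6 and Lin37 had a peak in more than 1 list. The 250 bases before the start of Cdk6, Lin37 and Cdc25a are printed 5′ to 3′ on the strand of the gene to show where these peaks lie, with the bases under every peak that touches the promoter in capitals (where 2 lists have a peak, the stretch that both cover). Cdk6 (chr5:3343643-3343892, plus strand) and Lin37 (chr7:30559647-30559896, minus strand) are the 2 promoters with peaks of 2 lists, and Cdc25a (chr9:109875329-109875578, plus strand) is the 1 promoter with both a peak and an E2F motif.
Cdk6: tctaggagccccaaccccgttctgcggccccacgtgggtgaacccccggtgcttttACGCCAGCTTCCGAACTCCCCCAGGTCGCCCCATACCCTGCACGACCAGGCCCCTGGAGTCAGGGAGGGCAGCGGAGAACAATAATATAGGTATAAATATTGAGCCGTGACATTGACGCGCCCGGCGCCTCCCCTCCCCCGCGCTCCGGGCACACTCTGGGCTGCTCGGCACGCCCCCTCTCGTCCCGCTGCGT
Lin37: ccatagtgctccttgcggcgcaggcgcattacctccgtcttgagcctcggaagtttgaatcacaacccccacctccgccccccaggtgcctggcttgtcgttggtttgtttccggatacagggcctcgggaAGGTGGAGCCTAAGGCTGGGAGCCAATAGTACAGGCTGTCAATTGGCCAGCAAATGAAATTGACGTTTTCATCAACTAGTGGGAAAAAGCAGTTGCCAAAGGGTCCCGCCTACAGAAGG
Cdc25a: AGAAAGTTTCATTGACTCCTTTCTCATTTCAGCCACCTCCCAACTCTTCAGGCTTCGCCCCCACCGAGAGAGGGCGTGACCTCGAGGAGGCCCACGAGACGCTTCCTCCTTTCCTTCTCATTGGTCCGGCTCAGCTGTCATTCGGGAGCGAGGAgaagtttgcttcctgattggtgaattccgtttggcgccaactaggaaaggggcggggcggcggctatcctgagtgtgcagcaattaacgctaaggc

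The ONECUT letters ATTGAT or ATCGAT, searched on both strands, were found in the windows of 2 of 29 members (6.9%), Ccnd3 and Cdkn2b, and in 8.56% of all genes with a window. None of the 6 members with a promoter peak was among them. The similar letters ATTGAC were not part of the search. They can be read in the capitals of each printed sequence, and no share over all genes was computed for them. The E2F letters TTTGGCGC or TTTCGCGC were in the windows of 5 of 29 members (17.2%), Cdc25a, E2f2, Mycn, Rbl1 and Tfdp1, against 1.21% of all genes. The cell cycle homology letters TTTGAA, which the MuvB subunit Lin54 binds, were in 10 of 29 (34.5%), against 18.5% of all genes. In the printed sequences the E2F letters of Cdc25a lie outside its peak, and the TTTGAA of Lin37 lies outside the replicate 2 peak but under the wider replicate 3 peak. None of these motifs contains another, and a match describes the sequence and not a bound site.

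Cdk6 encodes the kinase that works with D-type cyclins, and its promoter had peaks in lists 1 and 3. The fold reached 3.43 (q = 0.00192) in list 1 and 3.87 (q = 0.000888) in list 3, with summits 101 and 111 bases upstream of the start. At Lin37, a MuvB subunit needed for repression by DREAM, the fold reached 2.42 (q = 1.0) in list 2 and 3.7 (q = 0.0115) in list 3, with summits 103 and 123 bases before the start. At Cdc25a, the phosphatase that activates Cdk2, replicate 1 alone had a peak, with a fold of 3.49 (q = 0.0201) and its summit 190 bases before the start. The other promoter peaks had folds of 2.33 (E2f1, replicate 1, q = 0.992), 3.18 (Tfdp2, replicate 3, q = 0.142) and 3.04 (Skp2, replicate 2, q = 0.00657). Their windows are at RefSeq starts inside the gene span. The peaks lie 0.41 kb (E2f1), 62.8 kb (Tfdp2) and 14.8 kb (Skp2) from its nearer end, and the Cdk6 region lies 2.67 kb inside. E2f1 is the founding activator E2F and Skp2 is the ubiquitin ligase subunit that destroys p27. Each of these 3 peaks was in 1 list only. Rbl1, which encodes p107, had a region of 2 lists just past its start (chr2:157203849-157204166, midpoint 0.527 kb downstream), with folds of 5.09 (q = 1e-05) in list 1, 5.7 (q = 1.55e-07) in list 3 and no peak in list 2. In list 3 only Ccnd2 had a higher peak among the members.

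Ccnd2 encodes cyclin D2, a partner of Cdk4 and Cdk6 that growth signals induce in G1, and it carried the highest shared region at any member. The region (chr6:127149049-127149503) lies inside the gene, 2.69 kb from its higher-coordinate end. The table with strands does not cover Ccnd2, so which end this is was not determined here. Its folds were 6.36, 6.12 and 7.32 in replicates 1, 2 and 3 (mean 6.6 ± 0.636, SD, n = 3), with q of 5.63e-09, 1.48e-08 and 2.92e-11. All 3 values lie close together and well above the median of shared peaks. Ranked by the mean rank of its folds over the lists, it was number 169 of the 5114 shared regions, above 96.7% of them. At its summit 20 fragments in replicate 1 and 22 in replicate 3 stood against backgrounds of 2.3 and 2.14, the genome-wide floor of each library. The noncoding gene 9330179D12Rik overlaps the same interval. A second region inside Ccnd2, 8.02 kb from the other end (chr6:127133177-127133584), reached folds of 6.63 (q = 2.41e-11) in list 1 and 4.6 (q = 1.1e-05) in list 3, with no peak in list 2. The surroundings held 2 more shared regions. The nearer one, 15.3 kb below the gene in Tigar, had folds of 4.24, 3.35 and 5.41. The farther one, 80.2 kb away and nearest to Fgf6, had folds of 4.29, 5.55 and 5.7.

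The other D-type cyclins differed from Ccnd2 in these lists. Ccnd3 had 4 regions within its 94.6 kb, each in 1 list only, with folds between 2.73 and 3.35. Its nearest shared region lay 11.4 kb beyond the gene, where Bysl, Gm20517 and Med20 overlap (chr17:47611040-47611783), with folds of 6.06, 5.01 and 4.14. Ccnd1, the cyclin D most widely amplified in tumors, had no peak of any list inside it or within 3 kb, and its nearest shared region was 207 kb away. The E-type and A-type cyclins, which carry cells into and through S phase, had no peak of any list at Ccne1, Ccne2, Ccna1 or Ccna2. Of these 4, Ccne2 had a shared region 42.4 kb away near Trp53inp1, with folds of 5.45, 6.12 and 2.87. The nearest shared regions of Ccne1, Ccna1 and Ccna2 were 1400, 478 and 189 kb away, with Ccne1 the farthest of all 40 members.

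Rb1, the retinoblastoma gene, whose product binds and silences the activating E2F proteins, had a shared region far from its ends. It lies deep within the 133 kb gene, 31.6 kb from the nearer end (chr14:73293702-73294370). Folds were 3.67, 3.87 and 3.45 (mean 3.66 ± 0.207), with q of 0.00176, 0.000444 and 0.0115. The 3 replicates were close to each other but low, at number 3754 of 5114. Rb1 held 4 further regions, 2 of them in replicates 1 and 3 and 2 in 1 list. The higher of the 2-list regions (chr14:73238399-73238767) overlaps Lpar6, a receptor gene nested in Rb1, with folds of 4.01 (q = 0.00127) and 4.51 (q = 0.000151). Another 2 shared regions lie in the neighbor Itm2b, 48.5 and 49.9 kb from Rb1, with folds of 4.54, 3.35 and 5.41 and of 4.24, 4.11 and 5.41. Of the other pocket protein genes, Rbl1 had shared regions 42.1 kb away in Samhd1 and 75.2 kb away in Rpn2 beside its 2-list region. Rbl2, which encodes p130, had no peak of any list and no shared region within 130 kb.

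E2f8, an atypical E2F that represses E2F targets late in S phase, had its shared region 4.95 kb downstream of its start (chr7:48876485-48876799). Folds were 3.33, 5.85 and 5.41 (mean 4.86 ± 1.34), with q of 0.0673, 9.83e-08 and 4.18e-06. Replicate 1 was the low one, with 10 fragments at the summit against 16 in replicate 3, and there the peak did not reach a q of 0.05. Its rank was 1358 of 5114. E2f7, the other atypical E2F, had no peak in any list and its nearest shared region 323 kb away. The difference between these 2 paralogs was not tested, since each is 1 gene.

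**Figure D1:**
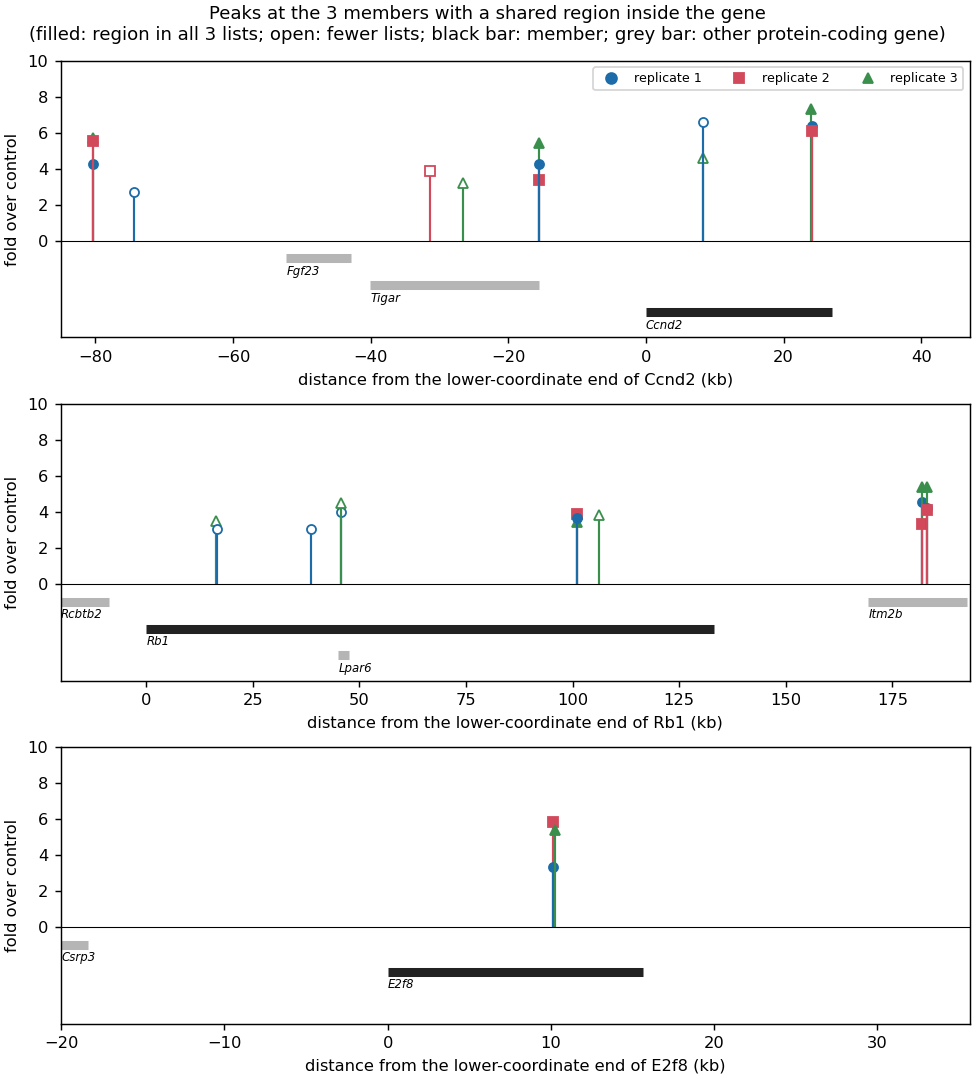
Fold over control (y axis) of every peak in replicates 1, 2 and 3 against distance in kb from the lower-coordinate end of Ccnd2, Rb1 and E2f8, with filled symbols for regions in all 3 lists and bars for protein-coding genes. The shared region inside Ccnd2 stands at 6.36, 6.12 and 7.32, that inside Rb1 at 3.67, 3.87 and 3.45, and that inside E2f8 at 3.33, 5.85 and 5.41.

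The other E2F genes, activating and repressive alike, had weaker signal than E2f8. E2f1 had 2 regions and E2f2 and E2f3 had 1 each, all in 1 list, with folds of 2.33 and 3.18 at E2f1, 3.5 at E2f2 and 3.03 at E2f3. Their nearest shared regions lay 40.0 kb (E2f1), 250.0 kb (E2f2) and 123 kb (E2f3) away. The region near E2f1 lies 1.31 kb from Zfp341 and had folds of 3.79, 5.39 and 3.99, and a second, 87.9 kb away, lies in Chmp4b. Among the repressive E2F genes, E2f4 had 1 peak in replicate 1 with a fold of 2.42 (q = 1.0), E2f6 had 1 in replicate 3 with a fold of 3.18, and E2f5 had none. E2f5 and E2f6 had shared regions within 100 kb, at 42.3 kb in Car13 and at 26.4 and 37.9 kb, and E2f4 had none nearer than 110 kb. The region in Car13 was uneven, with folds of 3.49, 5.55 and 7.12. The DP genes Tfdp1 and Tfdp2, whose products pair with E2F proteins to bind DNA, had 1 and 6 regions, none of them in more than 1 list. The highest fold was 3.99 at Tfdp1 and 3.94 at Tfdp2, and their nearest shared regions lay 1290 and 477 kb away.

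Cdk4, Cdk6 and Cdk2 encode the G1 kinases. Cdk4 had 1 region 2.91 kb beyond the gene, inside Tspan31 (chr10:127070195-127070596), reaching folds of 5.1 (q = 2.69e-06) in list 1 and 3.87 (q = 0.00332) in list 2, with no peak in list 3. A shared region 53.8 kb away in Os9 (chr10:127121118-127121507) had folds of 7.98, 7.72 and 7.36, which put it at number 59 of 5114. Another in Avil, 62.8 kb to the other side, had folds of 5.04, 6.76 and 6.27 and was number 342. Both are inside other genes, and each replicate had a fold above 5 at both.

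Cdk6, at 190.0 kb the longest member, had 6 regions, of which 2 were in replicates 1 and 3 and 4 in 1 list. Beside its promoter, the other 2-list region lay 64.3 kb downstream of the start, with folds of 3.65 and 4.3. Below the gene, 2 shared regions lie in the noncoding gene Gm36470 at 38.0 and 41.2 kb, with Cdk6 as their nearest protein-coding gene. Folds were 5.88, 3.38 and 3.38 at the nearer and 3.33, 3.48 and 3.18 at the farther, which is low in every list. Cdk2 had no peak of any list and no shared region nearer than 353 kb.

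The CDK inhibitors had no shared region inside them. Cdkn1b encodes p27, which binds cyclin-CDK complexes and holds cells in G1. It had 2 peaks in replicate 1 and 1 in replicate 2, all near its higher-coordinate end, and none overlapped between lists. A shared region 15.6 kb beyond it (chr6:134941142-134941413) lies in Lockd, a noncoding gene known to be transcribed downstream of Cdkn1b, with folds of 3.61, 4.68 and 3.76 (q = 0.0201, 0.000108 and 0.0116). Another lies 42.9 kb beyond it, with folds of 4.54, 5.29 and 3.5 and with Apold1 nearer. Cdkn1c, which encodes p57 and is imprinted, had no peak and no shared region nearer than 539 kb.

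The INK4 genes Cdkn2a and Cdkn2b are neighbors on chromosome 4, and the same 2 shared regions were counted for both. Cdkn2a encodes p16 and ARF and Cdkn2b encodes p15. Between the genes, a region 7.54 kb from Cdkn2a and 3.84 kb from Cdkn2b (chr4:89302157-89302445) lies in the noncoding gene Gm12610, with folds of 3.03, 3.9 and 3.5. These are low values, with a q of 0.197 in replicate 1, 0.00939 in replicate 2 and 0.043 in replicate 3. Outside them, a region 30.0 kb from Cdkn2a (chr4:89243676-89244495) had folds of 5.45, 4.46 and 5.41 and a q of at most 0.000502 in every list. Inside Cdkn2a replicate 1 had 2 peaks, with folds of 3.56 and 3.63, and the other lists none. Cdkn2c (p18) and Cdkn2d (p19) each had 1 peak, in replicate 3 only, and that at Cdkn2c was the highest of all member regions found in 1 list, with a fold of 4.78 (q = 0.000131). Their nearest shared regions were 251 and 286 kb away.

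Myc, the growth-promoting transcription factor that drives cyclin D2 and Cdk4 expression, had 1 peak within 3 kb, in replicate 3, with a fold of 3.74 (q = 0.0123). The region with the highest rank among all 33 within 100 kb of a member lay 49.0 kb from it, in the noncoding gene Pvt1 (chr15:62039400-62039963). Its folds were 7.87, 7.79 and 7.64 (mean 7.77 ± 0.117), and it was number 52 of 5114, above 99.0% of shared regions. The 3 replicates were nearly equal, with 25 fragments at the summit in replicate 1 and 23 in replicate 3. A second shared region in Pvt1, 58.5 kb from Myc, had folds of 3.94, 4.39 and 4.36. Myc is the nearest protein-coding gene to both. Mycn, the paralog of neural and embryonic tissues, had no peak and no shared region nearer than 364 kb.

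**Figure D2:**
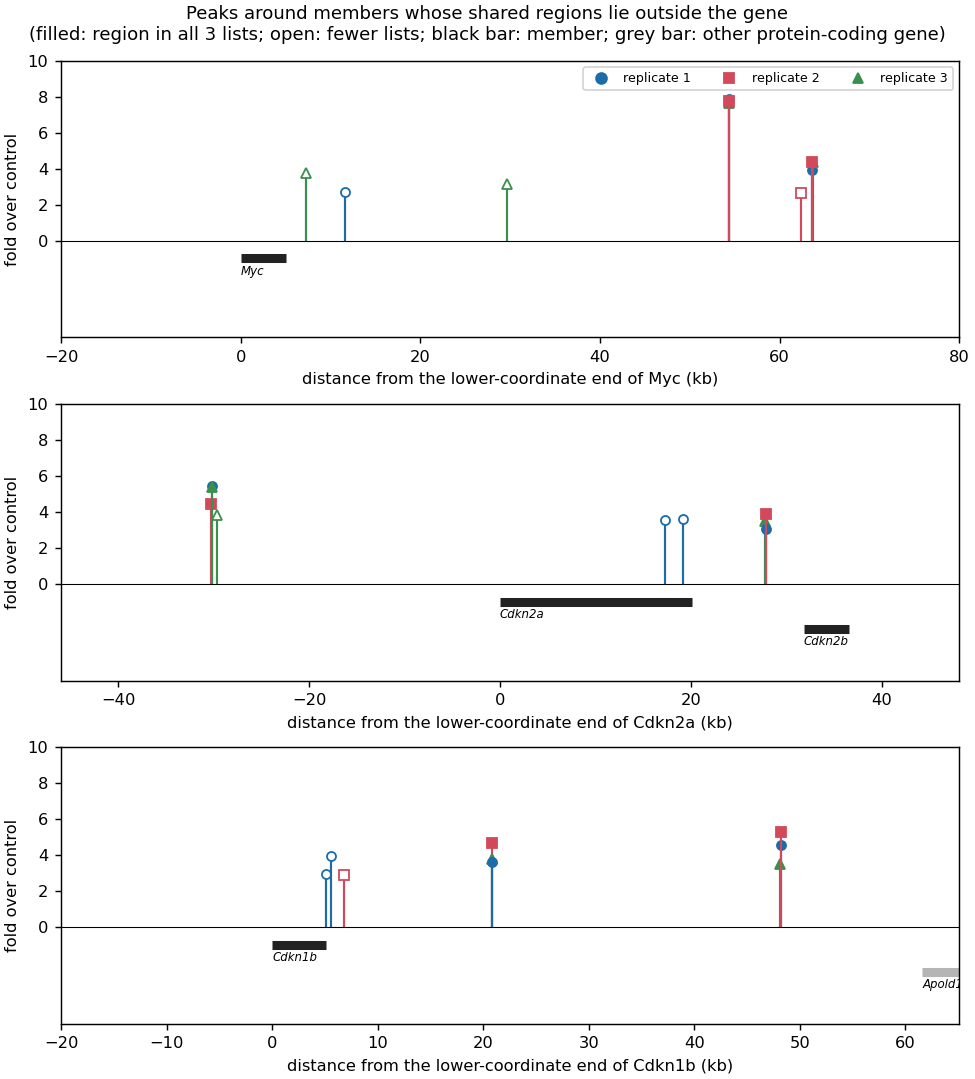
Fold over control of every peak in the 3 replicates against distance in kb from the lower-coordinate end of Myc, Cdkn2a and Cdkn1b, with filled symbols for regions in all 3 lists, black bars for members and grey bars for other protein-coding genes (noncoding genes such as Pvt1 are not drawn). The shared regions lie outside these genes, and the one 49.0 kb from Myc reaches 7.87, 7.79 and 7.64.

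Among the genes that act on Cdk2, Cdc25a had, beside its promoter peak, a region 15.0 kb downstream of its start with folds of 3.63 (replicate 1) and 4.46 (replicate 3), and no shared region nearer than 501 kb. Skp2 had 4 regions of 1 list each, 2 of them where it overlaps Lmbrd2, and 1 of them inside Nadk2, and its nearest shared region lay 118 kb away. Cks1b, the cofactor that Skp2 needs to recognize p27, had no peak. Its nearest shared region was 74.7 kb away in Adam15, with uneven folds of 3.22, 5.8 and 3.13.

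The MuvB subunits and partners had no shared region inside them. Lin52 had a 2-list region 17.4 kb downstream of its start, with folds of 4.24 (replicate 1) and 2.85 (replicate 3), and a shared region 16.0 kb away where Aldh6a1 and Bbof1 overlap, with folds of 2.73, 4.18 and 3.18. Lin9 had no peak, and a shared region 35.2 kb away in Acbd3 with folds of 3.33, 6.12 and 8.28, the widest spread of any region near a member. Lin54 had no peak, and its nearest shared region, like that of Lin37, lay outside 100 kb (133 and 649 kb). Mybl2, which encodes B-Myb, had a shared region 5.63 kb before its start, closer to Ift52 at 2.19 kb. Its folds were 3.33, 2.79 and 4.46, and in replicate 2 its q was 0.966. Foxm1 had shared regions 47.3 kb away in Itfg2, with folds of 5.75, 5.57 and 6.37 at number 322, and 57.7 kb away near Tead4. Neither Mybl2 nor Foxm1 had a peak of any list inside it or within 3 kb.

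In each replicate's own list, 16, 9 and 18 of the 40 members had a peak inside the gene or within 3 kb (40.0%, 22.5% and 45.0% in replicates 1, 2 and 3), against 35.5%, 21.2% and 31.3% of all genes. In any list 23 members had one (57.5%), against 45.5% of all genes. Of their 51 regions, 3 were in all 3 lists (5.88%, against 10.1% of all regions), 10 in 2 lists (19.6%, against 15.9%) and 38 in 1 (74.5%, against 74.0%). The share in 1 list was thus that of regions in general. Of the 10 regions in 2 lists, 8 were missing from replicate 2. Over the genome, too, lists 1 and 3 had the most regions in common, 9435. Lists 1 and 2 had 7279 and lists 2 and 3 had 6686, all counts that include regions in all 3 lists. The genome-wide share of 2-list regions missing from replicate 2 was not computed, so the 8 of 10 has no share beside it. By gene, 3 members had a shared region, 6 had a region of 2 lists at best (Rbl1, Cdk4, Cdk6, Cdc25a, Lin37 and Lin52), 14 had regions of 1 list only and 17 had no peak.

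**Figure D3:**
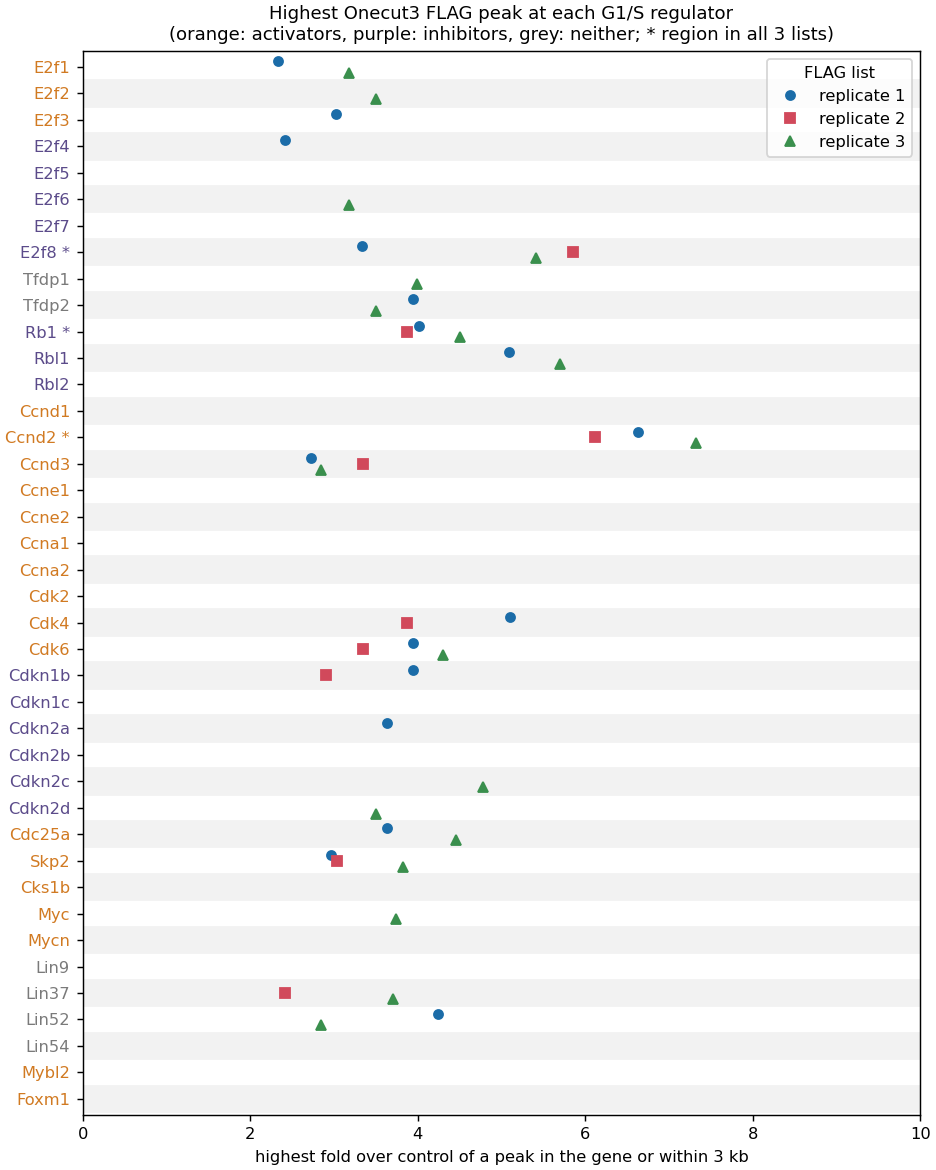
Highest fold over control in each replicate list for a peak inside each of the 40 members or within 3 kb, with a blank row or a missing symbol where the list had no peak. Ccnd2 reaches 7.32, Rbl1 has symbols for replicates 1 and 3 only, and the cyclin E and cyclin A genes are blank.

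Activators and inhibitors of S phase entry were then compared. A peak inside the gene or within 3 kb was found in replicates 1, 2 and 3 at 40.0%, 25.0% and 40.0% of the 20 activators, and at 42.9%, 21.4% and 42.9% of the 14 inhibitors. The activators averaged 35.0% ± 8.66 and the inhibitors 35.7% ± 12.4 (SD over the 3 lists). The difference was -2.86, 3.57 and -2.86 percentage points in replicates 1, 2 and 3, with a mean of -0.714 ± 3.71. It changed sign between replicates, and an exact two-sided sign-flip test over them gave p = 1.0, where 0.25 is the smallest p that 3 replicates allow. The mean turned positive, at 0.357, when either replicate 1 or replicate 3 was left out. It was -5.71 when peaks were placed by their midpoint, with inhibitors higher in every replicate (exact p = 0.25, the smallest possible), and -12.9 with a window of 10 kb (exact p = 0.5). The peak names point to an input shared by the 3 lists, so this spread covers the FLAG libraries only.

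Shared regions inside the gene or within 3 kb were at 1 of 20 activators (5.0%, Ccnd2) and at 2 of 14 inhibitors (14.3%, Rb1 and E2f8), against 11.5% of all genes. These counts moved with the rule. Under a q of at most 0.05 in every list only Rb1 remained among the inhibitors, under a 50% overlap of both peaks or summits within 100 bp only E2f8, and under a fold of at least 5 or a −log10 q of at least 5 neither. Ccnd2 kept its region under all of these. Within 100 kb the counts were 10 activators (50.0%) and 8 inhibitors (57.1%), against 40.6% of all genes. Within 50 kb they were 8 activators (40.0%) and the same 8 inhibitors by number (57.1%), against 27.8% of all genes. Of the 6 genes in neither class, 0 had a shared region close by and 2 had one within 100 kb (33.3%). The median distance to the nearest shared region was 96.5 kb for activators, 42.2 kb for inhibitors, 92.1 kb for all members and 152 kb for all protein-coding genes. The inhibitors include Cdkn2a and Cdkn2b, which share their regions and so are not independent.

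**Figure D4:**
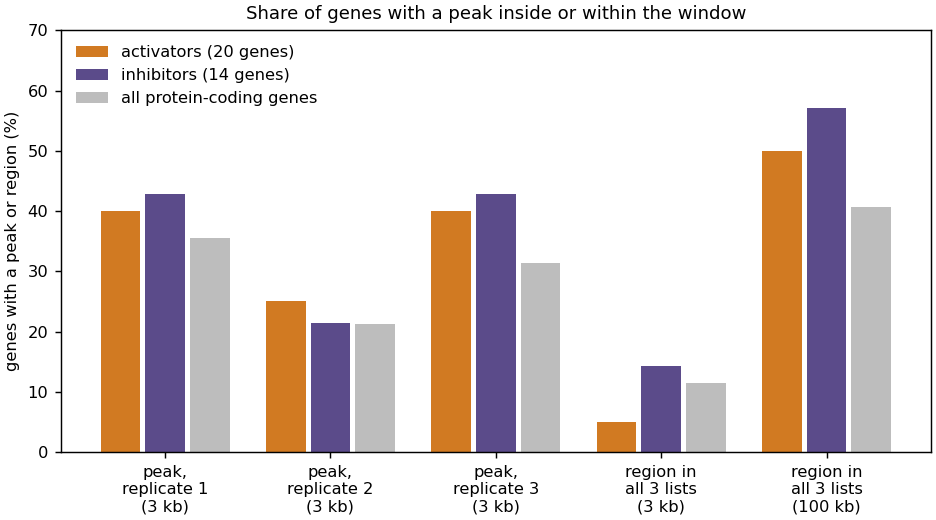
Percent of the 20 activators, the 14 inhibitors and all protein-coding genes with a peak of each replicate's list or a shared region inside the gene or within 3 kb, and with a shared region within 100 kb. Activators and inhibitors stand within 3.57 percentage points of each other in each replicate, and 5.0% and 14.3% have a shared region within 3 kb, against 11.5% of all genes.

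The 33 distinct shared regions within 100 kb of the members were mostly not theirs by position. They comprised 3 inside a member, 15 inside another protein-coding gene and 15 between genes, of which 8 had a member as the nearest gene. A q of at most 0.05 in every list was met by 21 of them (63.6%), against 57.0% of all shared regions. A fold of at least 5 in every list was met by 5, those inside Ccnd2, in Pvt1 near Myc, in Os9 and Avil near Cdk4 and in Itfg2 near Foxm1, and by 8.86% of all shared regions. Their median folds were 4.01, 4.68 and 4.14, with a median of 13 fragments at the summit in replicates 1 and 3. Cks1b, at 74.7 kb, was the farthest member with a shared region inside 100 kb, and E2f4, at 110 kb, and Skp2, at 118 kb, were the nearest outside. At the 3 kb limit, the nearest members outside were Cdkn2b at 3.84 kb and Mybl2 at 5.63 kb.

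**Figure D5:**
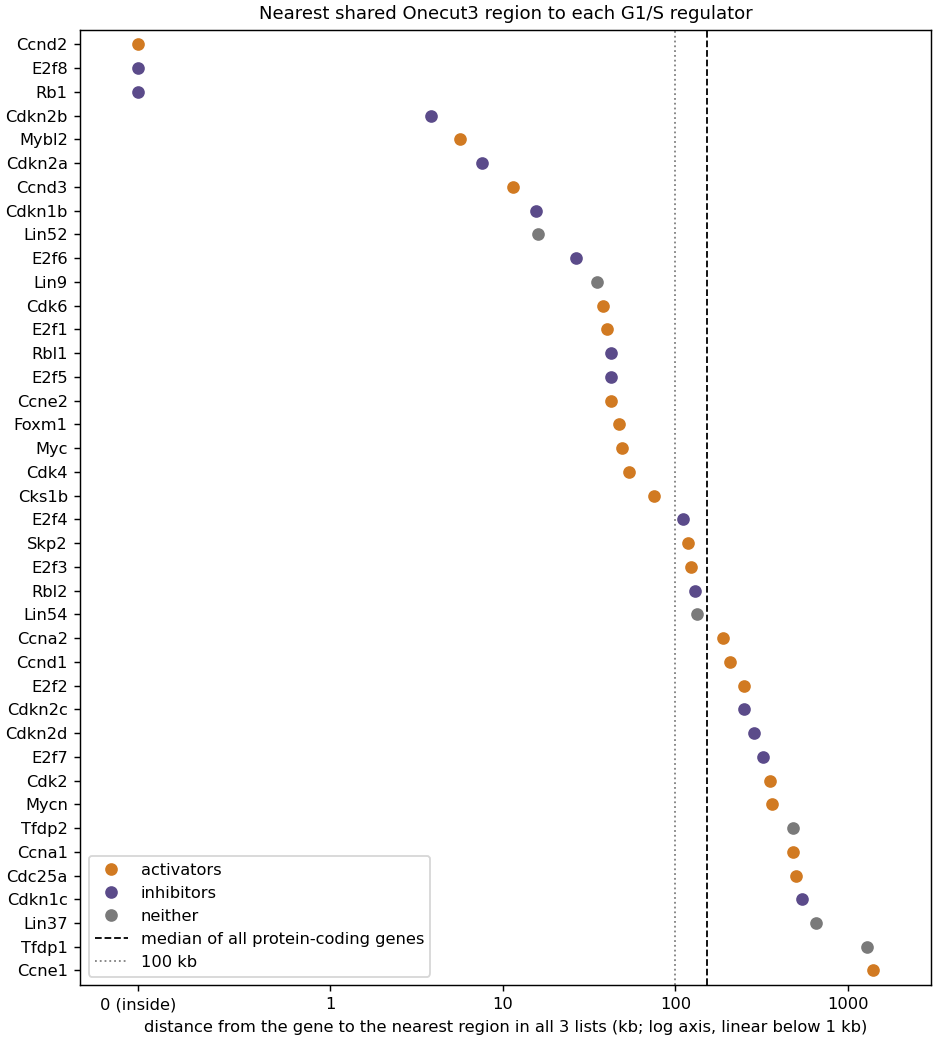
Distance in kb from each of the 40 members to its nearest region in all 3 lists (log axis, linear below 1 kb), colored by class, with lines at 100 kb and at the median of all protein-coding genes (152 kb). Ccnd2, E2f8 and Rb1 lie at 0, activators and inhibitors are interleaved down the scale, and Ccne1 lies farthest at 1400 kb.

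Gene length moved with these counts. The median member spans 15.7 kb and the median protein-coding gene 17.2 kb. Of 15 members under 10 kb none had a shared region inside or within 3 kb (3.85% of all genes of that length), of 11 members from 10 to 30 kb 2 had one (8.29%), of 11 from 30 to 100 kb none (15.0%) and of 3 over 100 kb 1, Rb1 (37.3%). Chromosomes also differ in how many genes lie within 100 kb of a shared region, from 21.2% to 59.7% over the 15 chromosomes that hold members. Weighting the chromosomes by their number of members gave 40.1%, beside the 50.0% counted. The part of length and chromosome in these shares was not tested further.

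A further 26 genes of the same pathway, outside the 40, were read in the same way. Of these, 4 had a shared region inside the gene or within 3 kb (15.4%, against 11.5% of all genes), all 4 within 3 kb of a gene end (15.4%, against 5.32%), and 1 had it inside the gene (3.85%, against 9.53%). They were Ccnh and Cdk7, which encode cyclin H and its kinase in the CDK-activating complex, Fzr1, the Cdh1 activator of the APC/C, and Dbf4, the activating subunit of Cdc7 kinase. Ccnh held its region inside, and the regions lay 0.991 kb from Cdk7, 0.285 kb from Fzr1 and 0.562 kb from Dbf4. Within 100 kb 12 of 26 had a shared region (46.2%, against 40.6%). Cdkn1a, the p53 target that encodes p21, had its nearest at 27.9 kb. In the replicates' own lists 16, 10 and 17 of the 26 had a peak inside or within 3 kb (61.5%, 38.5% and 65.4%). The shares of all genes were 35.5%, 21.2% and 31.3%. In any list 20 had one (76.9%), against 45.5% of all genes. Their median distance to a shared region was 121 kb, against 152 kb for all genes.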

How the data were processed

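ChIP-Seq peak lists of the 3 ONECUT3-OE FLAG libraries were used, grouped by the sample labels. The libraries of control FLAG, IgG and input DNA were not analysed here. The build GRCm38, deepTools 3.3.2, MACS2 2.1.0 and Bowtie2 2.2.6 are listed in the submitters' processing notes without roles, and the study's methods name MACS for peak calling. Peak names point to calling per library against the input. The deposited lists give the fold as a ratio, the p-value and q-value as −log10, and a score that was not used, all as the authors' caller wrote them. The weakest peaks have a −log10 p of 2.0, 2.01 and 2.02. Sequencing depth is not in the lists, so folds were mostly used within a list or beside each other. Where a mean and SD of folds over the 3 lists is given, it is not adjusted for depth. No interval was computed. A fold and its p follow from a whole pileup and a Poisson background, which were solved for at a tolerance of 0.001 in −log10 p. Over evenly spaced peaks of each list this succeeded for 100.0% (2107 and 2069 peaks of lists 1 and 3) and for 0.0933% (2143 peaks of list 2), so fragments are given for lists 1 and 3.

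Peaks overlapping by at least 1 bp were merged, and distances run from the nearest base of a region to the RefSeq gene span (GRCm38.p6). Strand, starts and promoter sequences came from RefSeq windows, which cover 29 of 40 members. Peak sequences outside these windows and exons were not used here. The 40 members, their classes, the 26 further genes and all thresholds were chosen with earlier results of these data known. The values of 1 flanking region are not reported here. Every member is accounted for: those with a shared region inside or within 3 kb with all values, those with fewer lists by counts and their higher folds, and the rest by distance. Alternatives were other thresholds, overlaps and windows, and leaving out each replicate. The merging and the pileup solution were tested on simulated data. Computations ran in Python 3.11.15 with pandas 2.3.3, numpy 2.4.6, matplotlib 3.10.9 and scipy 1.17.1.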

Additional observations from a re-analysis of the deposited data

How the results depend on the processing

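A −log10 q of at least 5, or a fold of at least 5, in every list left 1 member with a shared region inside and 1 inside or within 3 kb (both Ccnd2). The shares of all genes were 1.22% and 1.19% inside, and 1.54% and 1.48% inside or within 3 kb. Within 100 kb 4 members were left (Ccnd2, Cdk4, Myc and Foxm1), against 7.3% and 7.02% of all genes. Of the inhibitors 0 were left inside or within 3 kb. A q of at most 0.05, a 50% overlap of both peaks, and summits within 100 bp each left 1 inhibitor there, against 7.55%, 9.59% and 9.07% of all genes. Accepting regions of at least 2 lists gave 5 members at a gene end (10.6% of all genes), 8 inside (18.2%), 9 inside or within 3 kb (21.8%) and 34 within 100 kb (65.4%). The 9 included 4 activators and 3 inhibitors. A window of 1 kb left 0 members at a gene end (3.29% of all genes). A window of 10 kb gave 5 at a gene end (9.84% of all genes) and 6 inside or near it (14.3%), of which 2 were activators and 4 inhibitors.

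Leaving out each replicate in turn gave 2 to 3 members at a gene end (6.52% to 7.91% of all genes), 3 to 7 inside (11.3% to 14.5%), 4 to 7 inside or within 3 kb (13.8% to 17.2%), 23 to 28 within 100 kb (47.3% to 56.6%), 1 to 3 activators and 2 to 3 inhibitors. Without replicate 2, 7 members had a shared region inside or within 3 kb (17.2% of all genes), Rbl1, Cdk6, Cdc25a and Lin52 being added. The mean difference between activators and inhibitors then ranged from -2.86 to 0.357 percentage points, positive without replicate 1 and without replicate 3. With all 3 lists it was -0.476 among peaks reaching 5 in −log10 q, -2.86 among those reaching a fold of 5, -4.52 among those with q up to 0.05, -4.29 within 1 kb, -5.71 by midpoint and -12.9 within 10 kb (exact two-sided sign-flip p of 0.25 to 1.0). Treatments could not be compared because peak lists were used from 1 group only. Activators and inhibitors were compared within each replicate. The lists hold a median of 10 fragments per peak where this could be solved, so absence from a list limits what can be said of weak regions.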
